A study of Mus musculus with 37 samples.

Results

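The miR-17-92 cluster is a short run of miRNA genes that is transcribed as 1 primary transcript and then cut into separate mature miRNAs. Its products were followed here with 7 TaqMan assays, miR-17-5p, miR-18, miR-19a, miR-19b, miR-20, miR-92 and miR-92N. These 7 assays were chosen from the 459 assays of the panel by a rule on their names. No measured value entered the rule, but earlier results of these data were known when it was made. Each was read in 37 runs of mouse stem, progenitor and leukaemic cells from 12 populations.

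The cluster is known as a target of the transcription factors Myc and E2F, which drive cells into the cell cycle, and it is often called oncomiR-1 because extra copies of it speed lymphoma in mice. In mouse haematopoiesis it is needed for B cell development, and miR-19 is known as the member that carries much of its oncogenic activity. The miR-17 and miR-20 products are known to repress the cell cycle inhibitor Cdkn1a and the pro-apoptotic gene Bcl2l11, and miR-92a is known for restraining vessel growth in mouse endothelium. A pair of related clusters exists in mammals, miR-106b-25 and miR-106a-363.

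The mature sequences are shown because 1 sequence decides what an assay can tell apart, and because the seed, bases 2 to 8, sets the target range. In RefSeq's table for GRCm38.p6, 6 of the 7 assays matched a mature miRNA by name, and the 6 sequences hold 4 different seeds. All 6 lie on the plus strand of mouse chromosome 14 within 813 bases, in the order printed, and each is given 5′ to 3′ with the seed in capitals.
miR-17-5p: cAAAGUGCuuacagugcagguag
miR-18: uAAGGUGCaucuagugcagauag
miR-19a: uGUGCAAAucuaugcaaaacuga
miR-20: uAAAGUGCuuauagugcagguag
miR-19b: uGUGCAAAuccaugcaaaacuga
miR-92: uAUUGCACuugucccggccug

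The first, miR-17-5p, lies at chr14:115043684-115043706 (gene Mir17) and the last, miR-92a-3p, at chr14:115044476-115044496 (gene Mir92-1). Between them lie miR-18a-5p at chr14:115043867-115043889 (Mir18), miR-19a-3p at chr14:115044048-115044070 (Mir19a), miR-20a-5p at chr14:115044183-115044205 (Mir20a) and miR-19b-3p at chr14:115044358-115044380 (Mir19b-1). The miR-17-5p and miR-20 sequences share a seed and differ at 2 of 23 positions, and miR-19a and miR-19b share a seed and differ at 1 of 23. The miR-19b and miR-92 sequences also occur, letter for letter, on the minus strand of the X chromosome, at chrX:52741991-52742013 (Mir19b-2) and chrX:52741854-52741874 (Mir92-2). The miR-19b and miR-92 assays therefore cannot tell the chromosome 14 locus from the X-linked copies. The miR-92N assay is a second miR-92 assay by name, and its probe is not described in the labels.

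The study sorted or aliquoted between 20 and 1000 cells per tube and amplified miRNAs by multiplex reverse transcription and TaqMan PCR. A run gives a threshold cycle (Ct) per assay, where a lower Ct means more RNA and a step of 1 cycle is a 2-fold step if amplification is complete. A Ct of 40 stands for no amplification, and an assay counted as detected below Ct 35. Because the number of cells differed and no control RNA was on the panel, fewer cells and less miRNA per cell cannot be told apart from a raw Ct.

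Muscle was represented by satellite cells of the tibialis anterior (MuSC, 4 runs), sorted as CD34 and integrin-7 positive, and by proliferating myoblasts from limb muscle (Myoblast, 4 runs). Normal bone marrow gave quiescent long-term stem cells (LT-HSC, 4 runs), sorted in part as Endoglin+ Sca-1+ Lin–, and the Kit+ Sca-1+ Lin– fraction (KSL), which holds short-term stem cells and multipotent progenitors. KSL runs were split by strain into C57/Bl6 (KSL-B6, 3 runs) and Mixed 129Sv/J:C57Bl6 (KSL-Mixed, 2 runs). Mutant KSL came from AML-ETO9a transgenic mice on C57/Bl6 (KSL-ETO, 3 runs) and from Rb family triple knockout mice on the mixed strain (KSL-RbTKO, 2 runs). Leukaemic cells carrying the MLL-AF10 oncogene by transduction, in mice labelled wildtype and C57/Bl6, were the Kit+ stem fraction (MLL-LSC, 3 runs) and the Kit– fraction (MLL-Prog, 3 runs). Neural stem and progenitor cells of the subventricular zone and dentate gyrus were taken directly from mice at postnatal day 0 (NSPC-P0, 3 runs), after culture as neurospheres (NSPC-P0-Exp, 3 runs) and as neurospheres of adult mice (NSPC-Adult, 3 runs). All but the AML-ETO9a and Rb knockout cells are labelled wildtype, and the strain is C57/Bl6 elsewhere, except that adult neurosphere replicates 2 and 3 carry the labels C57/Bl7 and C57/Bl8. The labels state no age for the adult mice, no promoter for the transgene, no Cre for the knockout and no number of animals or clones, so p-values below measure the spread between these samples, which may be technical.

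Runs detected between 61 and 143 assays each, fewest in KSL-RbTKO (61 to 65), MuSC (65 to 90) and LT-HSC (73 to 96) and most in NSPC-P0-Exp (123 to 143), NSPC-Adult (139 in each) and Myoblast (131 to 139). Among the MuSC files, the Ct of runs 1 and 2 agreed to within 0.156 cycles (SD of the difference over 60 assays below Ct 32) and that of runs 3 and 4 to within 0.211 (42 assays), against 1.17 or more between runs of different pairs. Each pair was averaged and counted as 1 sample, which leaves 2 MuSC samples and 35 samples in all. The 4 blood marker assays (miR-223, miR-142-3p, miR-142-5p and miR-150) were detected in every run of all blood populations, except that miR-142-5p was in no KSL-RbTKO run. Of 3 skeletal muscle markers, MuSC had miR-206 and lacked miR-1 and miR-133a, while 2 were detected in every Myoblast run. miR-206 was also detected in every run of MLL-LSC, MLL-Prog and NSPC-Adult. On the level scale used below, the 3 markers summed to between -3.64 and -3.58 there, and to between -0.42 and -0.36 in MuSC. Of 4 neural markers, mmu-miR-9, miR-124a and miR-219 were detected in no run of any neural population, so they give no check of the neural label, and miR-128a was in every NSPC-P0 and NSPC-Adult run but also in every run of several blood populations.

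The members differed widely in how reliably they amplified. The miR-19b, miR-92 and miR-92N assays were detected in all 37 runs, miR-20 in 35, miR-19a in 34, miR-18 in 30 and miR-17-5p in 25. miR-17-5p ran late throughout, with its lowest Ct at 31.0, and was detected in no run of MuSC, KSL-Mixed, KSL-RbTKO or MLL-Prog. Assays differ in efficiency, so the order of Ct between assays is not an order of abundance, and only changes between populations are compared below. The other arm of the same hairpin, measured by miR-17-3p and mmu-miR-17-3p, was detected in 0 and 1 of 37 runs, the latter at Ct 34.7 in KSL-B6 replicate 3.

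**Figure D1:**
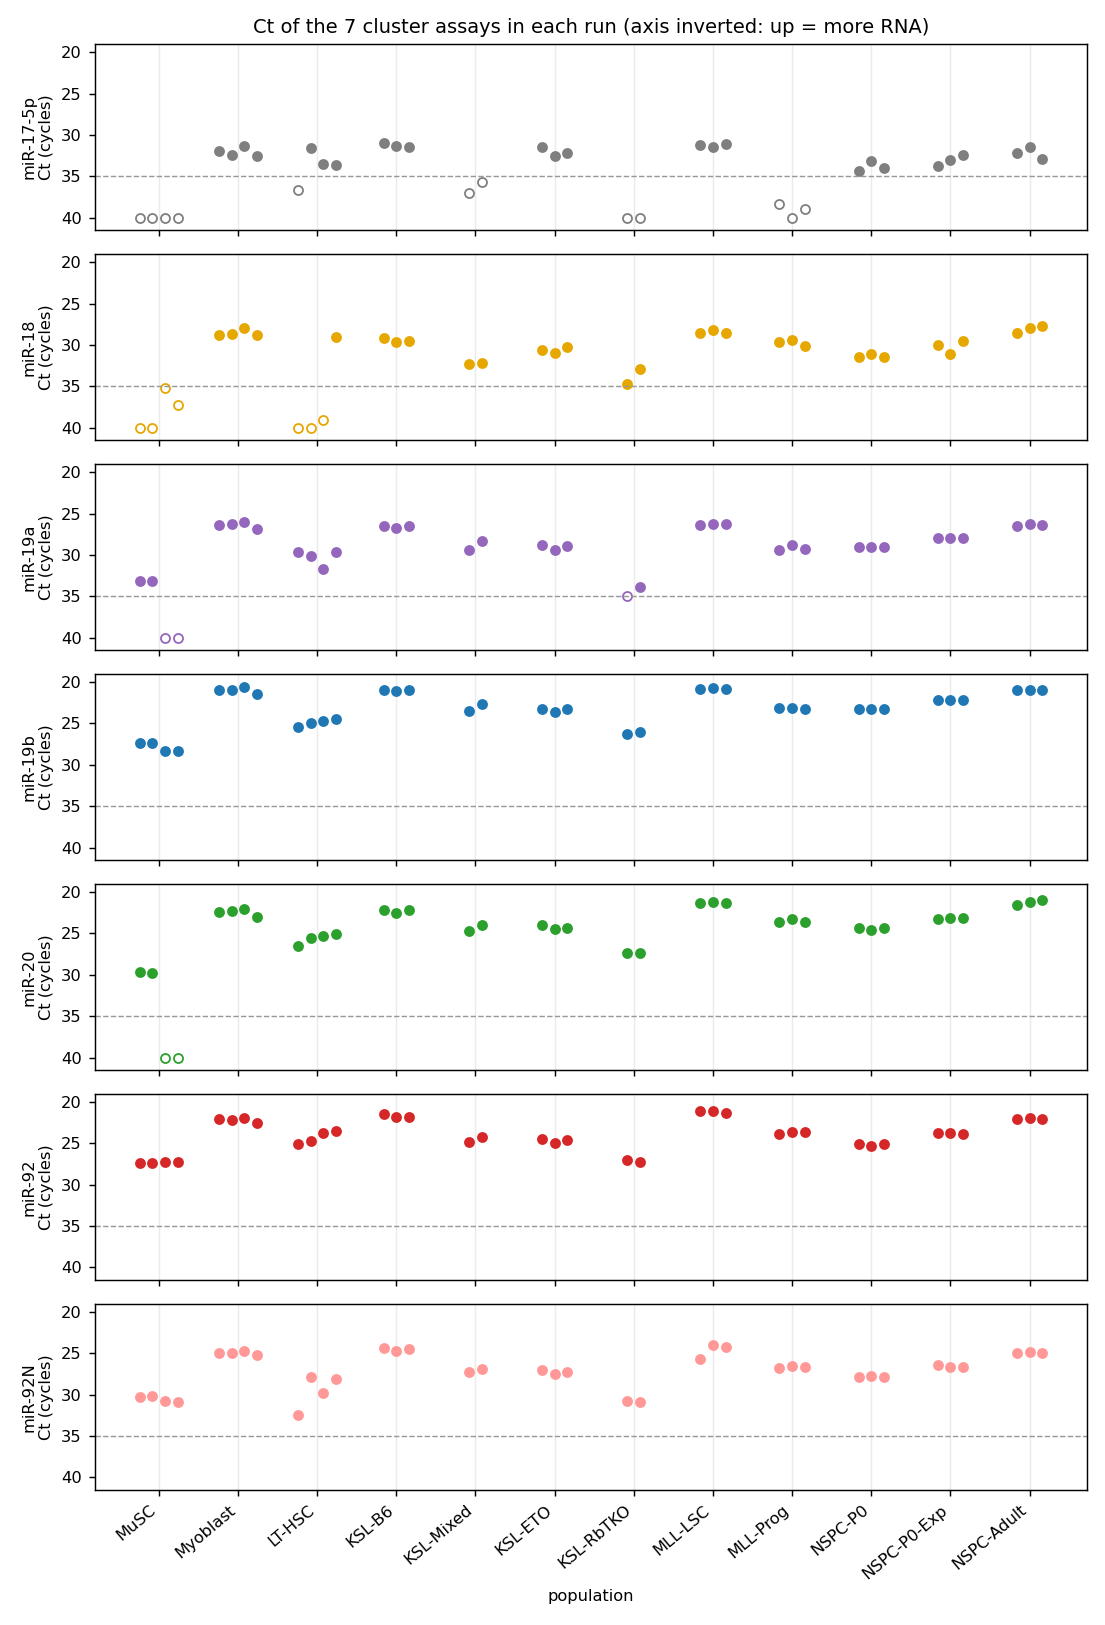
Ct in cycles (inverted axis) of the 7 cluster assays in each of 37 runs by population, with filled points detected below Ct 35 (dashed line) and open points not detected. miR-19b, miR-92 and miR-92N are filled in every run, and miR-17-5p is open in all MuSC, KSL-Mixed, KSL-RbTKO and MLL-Prog runs.

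To compare populations, each run was centred on the mean Ct of the 28 assays detected in all runs, 3 of which are cluster assays. The level is that mean minus the Ct, in cycles on a log2 scale, with a common floor of -5.23 for values not measurable in every run. Myoblasts stood highest for miR-19b, at 5.29 ± 0.12 (SD, n = 4), followed by NSPC-Adult at 4.46 ± 0.04 (SD, n = 3) and MLL-LSC at 4.45 ± 0.19 (SD, n = 3). MuSC stood lowest, at 0.989 in sample 1 and 0.121 in sample 2. The Myoblast values overlapped no other population, and those of NSPC-Adult and MLL-LSC overlapped each other.

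In the middle of the miR-19b order, KSL-B6 (4.15), NSPC-P0-Exp (4.14), KSL-Mixed (3.87) and NSPC-P0 (3.67) followed in an unbroken chain of overlapping neighbours. KSL-RbTKO stood apart from both neighbours at 3.40, and MLL-Prog (3.01), LT-HSC (2.99) and KSL-ETO (2.89) overlapped in turn. miR-20 was ordered differently at the top, with NSPC-Adult at 4.20 ± 0.17 (SD, n = 3), MLL-LSC at 3.95 and Myoblast at 3.81, which overlapped in turn. At the bottom MuSC sample 1 had a miR-20 level of -1.46 and sample 2 lay at the floor, while the next lowest population, KSL-ETO, was at 1.96.

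For miR-92, Myoblast (4.06), MLL-LSC (4.05), LT-HSC (3.62), KSL-B6 (3.45) and NSPC-Adult (3.40) formed a chain of overlapping neighbours above the rest. LT-HSC thus had rank 3 of 12 for the miR-92 assay but rank 10 for miR-19b. With the second assay, miR-92N, LT-HSC had rank 11, at -1.66, with samples from -3.86 to 0.10. At the lower end for miR-92, KSL-ETO, at 1.56 ± 0.16 (SD, n = 3), overlapped NSPC-P0 at 1.77. It was followed by MuSC, at 1.03 ± 0.20 (SD, n = 2). miR-19a followed miR-19b at the top (Myoblast -0.16, NSPC-Adult -0.97, MLL-LSC -1.12), but LT-HSC samples spread from -4.12 to -1.06. miR-18 was highest in Myoblast (-2.31) and NSPC-Adult (-2.60), and only KSL-ETO and KSL-Mixed were neighbours without overlap in its order. miR-92N was highest in Myoblast (1.29) and lowest in MuSC (-2.17). miR-17-5p lay at the floor in all samples but LT-HSC replicate 2, so it has no usable order on this scale.

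**Figure D2:**
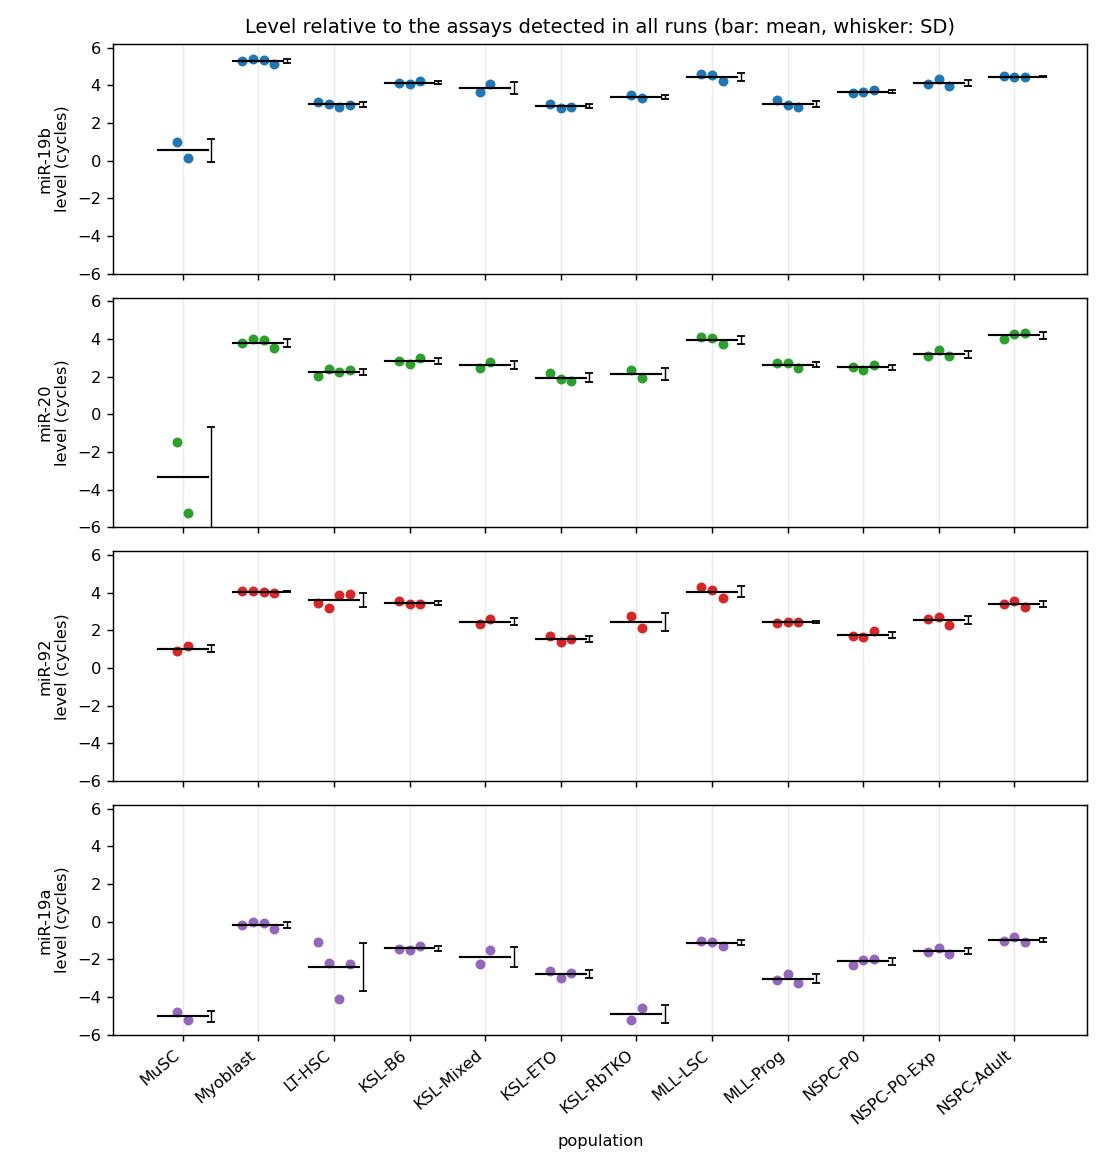
Level in cycles (log2 scale, relative to the 28 assays detected in all runs) of miR-19b, miR-20, miR-92 and miR-19a in each of 35 samples by population, with the mean as a bar and the SD as a whisker. Myoblast is highest for miR-19b, at 5.29, and MuSC is lowest for all 4 assays shown.

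Populations were then compared pairwise, each pair centred anew on the assays detected in every run compared, with limma over all assays tested and Benjamini-Hochberg adjustment. Several direct comparisons share samples (KSL-B6 enters 4, MLL-LSC 3, LT-HSC, KSL-Mixed and NSPC-P0-Exp 2 each), so their results are set side by side and not counted as separate evidence. Where a group lay wholly at the floor, the difference is given as "at least" or "or lower".

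Myoblasts, the committed and dividing muscle cells, had far more of the cluster than satellite cells, the quiescent stem cells of muscle. miR-20 was at Ct 29.7, 29.8, 40 and 40 in MuSC runs 1 to 4 and at 22.4, 22.3, 22 and 23 in Myoblast. miR-19b was at 27.3, 27.3, 28.3 and 28.3 against 20.9, 20.9, 20.6 and 21.4, and miR-92 at 27.4, 27.4, 27.3 and 27.2 against 22.1, 22.2, 21.9 and 22.5. All Myoblast runs lay below all MuSC runs in both assays. After centring, 6 of 7 members rose and 0 fell, where 46.5% of the 127 assays tested rose and 15% fell. The median member difference was 3.59, against 1.11 over all assays tested.

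miR-20 rose by 7.24 ± 1.39 (SE, adjusted p = 0.00819, n = 4 and 2), miR-19a by 4.94 ± 0.46 and miR-19b by 4.14 ± 0.21 (adjusted p = 4.47e-05). miR-18, undetected in all MuSC runs, rose by at least 3.59 ± 0.20, miR-92N by 2.86 ± 0.10 and miR-92 by 2.44 ± 0.14. The miR-20 difference rested in part on the second MuSC sample, where it did not amplify, and was 4.53 without it. In that sample miR-19a did not amplify either, so its difference also rested in part on a value at the floor. miR-17-5p was at Ct 40 in all MuSC runs and between 31.3 and 32.5 in Myoblast, and was at least 0.17 ± 0.18 higher (adjusted p = 0.435), with both groups near the floor of -5.30. It passed without centring (2.98), under quantile normalization (2.01) and with a detection limit of Ct 38 (2.77), while miR-92 lost its call under quantile normalization (0.56, adjusted p = 0.0806) and miR-18 with a limit of Ct 32 (0.55). MuSC runs detected 65 to 90 assays against 131 to 139 in Myoblast, and the part of lower input in these differences was not tested.

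KSL progenitors had more of some members than the LT-HSC they descend from, but the cluster did not move as a block. miR-19b was at Ct 25.4, 24.9, 24.7 and 24.5 in LT-HSC and at 20.9, 21.1 and 21.0 in KSL-B6. miR-92 was at 25.1, 24.7, 23.7 and 23.5 against 21.5, 21.8 and 21.8. After centring, 3 of 7 members rose and 0 fell, where 49.6% of the 121 assays tested rose and 14.9% fell, so the share of members called was no higher than that of all assays. miR-19b rose by 1.87 ± 0.09 (SE, adjusted p = 9.26e-06, n = 3 and 4), miR-20 by 1.29 ± 0.15 and miR-92N by 3.02 ± 0.96 (adjusted p = 0.0321). miR-92 differed by 0.54 ± 0.24 (adjusted p = 0.0878) and miR-19a by 1.70 ± 0.63 (adjusted p = 0.0536). The median of all assays tested was itself 1.14 higher in KSL-B6. miR-92 passed at 0.88 with members and related assays left out of the centring and stood at -0.19 when centred on the median, and miR-92N lost its call under quantile normalization (2.15) and median centring (2.28). LT-HSC runs detected 73 to 96 assays and KSL-B6 runs 123 to 133. The summed level of the 4 blood markers was 8.49 to 9.09 in LT-HSC and 4.34 to 4.87 in KSL-B6, and that of 5 epithelial markers -1.31 to 1.21 against -2.91. The part of these in the differences was not tested.

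LT-HSC replicates differed strongly in the weaker assays. miR-18 was at Ct 40, 40, 39.1 and 29 in LT-HSC against 29.2, 29.7 and 29.5 in KSL-B6, so it was detected in 1 stem cell run, near the progenitors' Ct, and not in the other 3. Its difference of 1.71 ± 1.34 did not pass, and without LT-HSC replicate 4 it was 2.78 and passed (adjusted p = 3.83e-05). miR-92N was at 32.4, 27.8, 29.8 and 28.1 in LT-HSC, and its call was lost without LT-HSC replicate 3 or any 1 KSL-B6 replicate (adjusted p = 0.0693 to 0.11). miR-19a passed without LT-HSC replicate 1 (2.20) or replicate 3 (1.19), and miR-17-5p, at 36.7, 31.6, 33.5 and 33.6 in LT-HSC, passed without replicate 2 (0.83) and without centring (2.19).

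Whether the blood step and the muscle step differed was tested as an interaction over these 4 populations. For 4 of 7 members the rise from stem cell to progenitor was smaller in blood and for 0 larger, where 38.3% of the 149 assays tested were lower and 16.8% higher. The difference between steps was -2.96 ± 0.28 for miR-19b (SE, adjusted p = 7.58e-06), -2.59 ± 0.28 for miR-92, -3.93 ± 0.92 for miR-19a and -6.64 ± 1.38 for miR-20. Under quantile normalization the miR-19b value turned to 1.58 and miR-92 fell short of the test at -0.11. Without the second MuSC sample, miR-19a was -2.45 and no longer passed (adjusted p = 0.0534), miR-19b was -1.94 and miR-20 -3.49, both still past the test. Without LT-HSC replicate 4, miR-18 passed at -1.86.

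In the neural lineage the cluster was higher in cultured neurospheres than in freshly isolated newborn cells, and higher again in adult neurospheres. miR-92 was at Ct 25.1, 25.3 and 25.1 in NSPC-P0, 23.7, 23.8 and 23.9 in NSPC-P0-Exp and 22.1, 21.9 and 22.1 in NSPC-Adult. miR-20 ran at 24.3, 24.6 and 24.4, then 23.2, 23.1 and 23.1, then 21.5, 21.2 and 21.0. The 3 groups did not overlap in either assay. Between fresh and cultured newborn cells 5 of 7 members rose and 0 fell, where 21.4% of 126 assays tested rose and 25.4% fell. The differences were small, from 0.51 ± 0.14 for miR-19b to 0.81 ± 0.18 for miR-92 (SE, adjusted p = 0.0349 and 0.0161, n = 3 and 3), around an all-assay median of -0.23.

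These 5 calls were fragile. Centred on the median of the common assays none passed and miR-19b stood at 0.00. Without NSPC-P0 replicate 2 none passed, without NSPC-P0 replicate 1 or NSPC-P0-Exp replicate 1 only miR-20 did, and without NSPC-P0 replicate 3 miR-20 and miR-92 did. The blood markers moved the other way, with 3 of 4 detected in every NSPC-P0 run and a summed level of 1.47 to 1.63, against 0 of 4 in every NSPC-P0-Exp run and -3.23 to -0.86. miR-142-3p was in no NSPC-P0-Exp run, and miR-142-5p was in no run of either group. The endothelial markers miR-126 and miR-126* moved the same way, both detected in every NSPC-P0 run at a summed level of 3.60 to 3.77, against 1 of 2 in every NSPC-P0-Exp run and -2.62 to -0.07. The part of blood and endothelial cells in the result was not tested.

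Between newborn and adult neurospheres 6 of 7 members rose and 0 fell, where 25.8% of 132 assays tested rose and 15.2% fell. miR-20 rose by 1.23 ± 0.17 (SE, adjusted p = 0.00494, n = 3 and 3), miR-92 by 1.09 ± 0.16, miR-92N by 0.93 ± 0.16 and miR-19a by 0.83 ± 0.13. miR-18, at Ct 30, 31.1 and 29.5 in newborn and 28.5, 27.9 and 27.7 in adult spheres, rose by 1.49 ± 0.43, and miR-19b by 0.56 ± 0.14. The median of all assays was 0.46 higher in the adult. Under quantile normalization miR-18 (1.49), miR-19a (0.49), miR-20 (0.33) and miR-19b (0.00) did not pass. The miR-18 and miR-19b calls were lost without any 1 of 5 samples, all but NSPC-P0-Exp replicate 3 (adjusted p = 0.0554 to 0.128). miR-17-5p, at 33.7, 33.0 and 32.4 against 32.2, 31.5 and 32.9, overlapped between the groups (0.16 ± 0.44).

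In MLL-AF10 leukaemia the cluster was lower in the Kit– fraction than in the Kit+ stem fraction. miR-19b was at Ct 20.8, 20.7 and 20.8 in MLL-LSC and 23.1, 23.1 and 23.2 in MLL-Prog, and miR-20 at 21.3, 21.2 and 21.3 against 23.6, 23.3 and 23.6. miR-17-5p was at 31.2, 31.4 and 31.1 in MLL-LSC and at 38.4, 40 and 38.9 in MLL-Prog, where no run detected it. The groups did not overlap in these 3 assays. After centring, 5 of 7 members fell and 0 rose, where 29.5% of 122 assays tested fell and 27.9% rose. The median member difference was -1.53 against -0.08 over all assays.

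miR-17-5p fell by 2.72 ± 0.15 or more (SE, adjusted p = 0.000187, n = 3 and 3), miR-19a by 1.99 ± 0.15, miR-92 by 1.69 ± 0.17 and miR-20 by 1.39 ± 0.15. miR-19b fell by 1.53 ± 0.17. miR-18 differed by -0.39 ± 0.25, with Ct 28.6, 28.2 and 28.6 against 29.6, 29.4 and 30.1. miR-92N, at 25.7, 24.0 and 24.2 against 26.8, 26.5 and 26.6, differed by -1.16 ± 0.41 (adjusted p = 0.0544) and passed at -1.62 without MLL-LSC replicate 1. The 5 calls held under all scalings tried, whereas miR-18 stood at 0.07 with median centring, and with a detection limit of Ct 32 miR-17-5p was at the floor in both groups. Both fractions had all 4 blood markers, with a summed level of 7.72 to 7.86 in MLL-LSC and 8.59 to 8.73 in MLL-Prog.

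Against normal LT-HSC, MLL-LSC had more of some cluster members. In MLL-LSC minus LT-HSC, 4 of 7 members rose and 0 fell, where 39.8% of 123 assays tested rose and 13.8% fell. The median member difference was 2.16, against 0.80 over all assays tested. LT-HSC runs detected 73 to 96 assays and MLL-LSC runs 119 to 125, and the part of lower input was not tested. miR-20 rose by 2.39 ± 0.14 (SE, adjusted p = 3.13e-05, n = 3 and 4), miR-19b by 2.16 ± 0.09, miR-19a by 2.00 ± 0.66 and miR-92 by 1.14 ± 0.25. Same-numbered samples of these 2 groups deviated together, which the unpaired fit behind these values leaves out of account. With the replicate number as a block, miR-19a (adjusted p = 0.116) and miR-92 (adjusted p = 0.0834) did not pass. In that fit miR-18 (3.98, adjusted p = 0.00288) and miR-92N (3.27, adjusted p = 0.0421) did. Centred on the median, miR-92 was at 0.36 and miR-19a at 1.22, and neither passed. The miR-19a call was also lost without LT-HSC replicate 2 or 4 or any 1 MLL-LSC replicate (adjusted p = 0.0898 to 0.127). miR-18 also passed without LT-HSC replicate 4 (3.89), miR-92N without LT-HSC replicate 1 (2.18) or 2 (3.52), and miR-17-5p without LT-HSC replicate 2 (0.85).

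Against KSL-B6, which the labels describe as proliferative, the leukaemic stem fraction differed past the test in few members. Of 7 members 2 rose and 0 fell, where 34.8% of 135 assays tested rose and 31.1% fell. miR-20, at Ct 21.3, 21.2 and 21.3 in MLL-LSC and 22.2, 22.5 and 22.2 in KSL-B6, rose by 0.72 ± 0.11 (SE, adjusted p = 0.00162, n = 3 and 3), and miR-18 by 0.69 ± 0.16. miR-20 was at 0.36 and did not pass under quantile normalization. miR-19a and miR-19b each differed by -0.08 ± 0.10, and under quantile normalization miR-19a passed in the other direction, at 0.63. With median centring both stood at 0.43 and did not pass, while miR-92, at 0.22 ± 0.14, passed at 0.73, as it did at 0.53 without centring.

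KSL cells of AML-ETO9a mice had less of the cluster than wildtype KSL of the same strain. miR-92 was at Ct 24.5, 25 and 24.6 in KSL-ETO and 21.5, 21.8 and 21.8 in KSL-B6. miR-19a was at 28.8, 29.4 and 28.9 against 26.5, 26.7 and 26.5, and miR-19b at 23.2, 23.6 and 23.3 against 20.9, 21.1 and 21.0. All KSL-ETO runs lay above all KSL-B6 runs in each. After centring, 6 of 7 members fell and 0 rose, where 38.4% of 125 assays tested fell and 32% rose, and the median member difference was -1.88 against -0.01 over all assays.

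miR-92 fell by 2.51 ± 0.14 (SE, adjusted p = 1.64e-05, n = 3 and 3), miR-92N by 2.28 ± 0.13, miR-19a by 1.98 ± 0.12, miR-19b by 1.88 ± 0.11 and miR-20 by 1.51 ± 0.12. miR-18 fell by 0.68 ± 0.19, a call lost without KSL-B6 replicate 1 or KSL-ETO replicate 1 or 2 (adjusted p = 0.0659 to 0.074), under quantile normalization (-0.28), median centring (-0.47) and a limit of Ct 38 (-0.63), and with all 5 wildtype KSL runs as control (-0.15). miR-17-5p, at 31.5, 32.5 and 32.2 against 31.0, 31.3 and 31.4, differed by -0.34 ± 0.23. KSL-ETO runs detected 111 to 113 assays against 123 to 133 in KSL-B6, and their summed blood marker level was 2.96 to 3.16 against 4.34 to 4.87. The part of either in these differences was not tested.

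**Figure D3:**
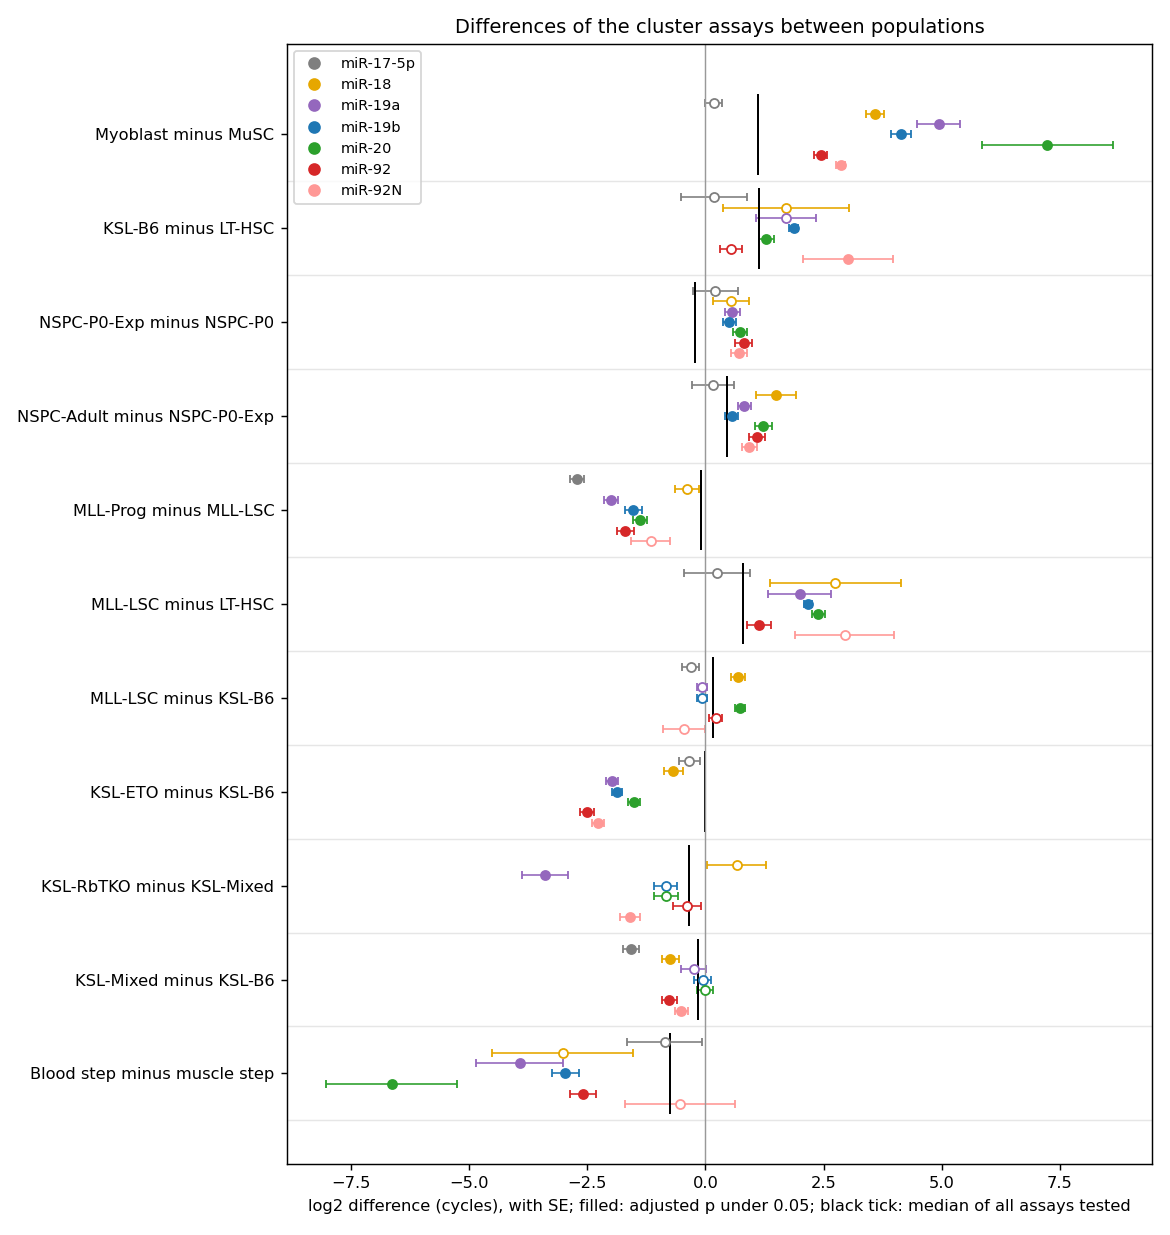
Log2 difference in cycles with its SE for each cluster assay in 11 comparisons, filled where the adjusted p was under 0.05, with a black line at the median of all assays tested. Most members lie right of the line in Myoblast minus MuSC, where 6 of 7 rose, and left of it in KSL-ETO minus KSL-B6, where 6 of 7 fell.

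Loss of the Rb family, the retinoblastoma proteins that hold E2F in check, was compared with wildtype KSL of the same mixed strain. miR-19a was at Ct 35 and 33.9 in KSL-RbTKO and 29.4 and 28.3 in KSL-Mixed, and miR-92N at 30.8 and 30.9 against 27.2 and 26.9. The groups did not overlap in either assay. miR-17-5p was detected in neither group and was not tested. Of the 6 members tested 2 fell and 0 rose, where 19.1% of 94 assays tested fell and 11.7% rose. miR-19a fell by 3.39 ± 0.49 (SE, adjusted p = 0.0353, n = 2 and 2) and miR-92N by 1.59 ± 0.22 (adjusted p = 0.0347).

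miR-19b and miR-20 each differed by -0.84, miR-92 by -0.39 and miR-18 by 0.66, and none of these passed. With 2 samples a group neither call held throughout, and both were lost under quantile normalization and median centring, where miR-92 stood at 0.35. The miR-19a call was lost whichever of the 4 samples was left out (adjusted p = 0.113 to 0.242), and miR-92N without either KSL-Mixed sample (adjusted p = 0.212 and 0.266). miR-19b passed at -1.20 without KSL-Mixed replicate 4. Such fits assume that a lone sample varies like the other group. KSL-RbTKO runs detected 61 to 65 assays and KSL-Mixed runs 98 to 102, and the part of lower input was not tested.

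The wildtype KSL groups, which carry different strain labels, were compared with each other. miR-17-5p was at Ct 37.0 and 35.7 in KSL-Mixed and 31.0, 31.3 and 31.4 in KSL-B6, and miR-92 at 24.8 and 24.2 against 21.5, 21.8 and 21.8. Of 7 members 4 were lower in KSL-Mixed and 0 higher, where 31.3% of 115 assays tested were lower and 15.7% higher. miR-17-5p was lower by 1.57 ± 0.16 or more (SE, adjusted p = 0.00417, n = 2 and 3), with values of -0.76 ± 0.16 for miR-92, -0.74 ± 0.17 for miR-18 and -0.51 ± 0.13 for miR-92N. miR-19b (-0.06 ± 0.18) and miR-20 (-0.01 ± 0.16) overlapped between the strains.

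The miR-18 and miR-92N calls were lost without KSL-B6 replicate 2 or 3 or either KSL-Mixed sample, and that of miR-92 without KSL-B6 replicate 1 or 2 or KSL-Mixed replicate 4 (adjusted p = 0.0635 to 0.163 over these fits). miR-19a passed at -0.60 without KSL-Mixed replicate 5. The strain groups detected 98 to 102 and 123 to 133 assays, so strain and input cannot be told apart in these values.

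A Ct difference between members within a run does not change with centring, and both assays come from the same cells. Whether it changes with low input was not tested. For each of 21 pairs the Ct difference was compared across populations by a permutation test of the F ratio with 100000 draws, over samples that detected both and populations with at least 2 of them. The ratio changed between populations in 17 of 21 pairs. Over all 378 pairs of the 28 assays detected in every run the share was 98.9%, so a change of ratio is the rule on this panel. The group means of the 3 member pairs among those 378 had a median SD of 0.768 cycles, against 1.84 over all pairs. These 3 pairs join only miR-19b, miR-92 and miR-92N. The median is that of miR-92 against miR-92N, which carry the same miRNA name. The value therefore does not describe the cluster as a whole.

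miR-19a and miR-19b, which share a seed and differ at 1 position, kept the steadiest ratio. miR-19a came between 5.40 and 6.03 cycles after miR-19b in 10 populations (SD of the means 0.193, adjusted p = 0.852 over 31 samples). In KSL-RbTKO, with 1 sample that detected both, the gap was 7.90, and the MuSC sample that detected both had 5.80. LT-HSC samples spread from 4.20 to 7 around a mean of 5.40. Their SD was 1.17, against at most 0.31 (MLL-Prog) in the other populations with more than 1 such sample. The p-value therefore does not show a constant ratio. The other pairs that did not pass all hold miR-92N, with miR-19a (adjusted p = 0.648), miR-19b (0.206) and miR-20 (0.103). Without LT-HSC replicate 1, 20 of the 21 pairs passed, and without LT-HSC replicate 2, 19 did. A pair that did not pass is therefore not shown to keep its ratio.

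miR-19b against miR-92 separated the populations. The Ct of miR-19b minus that of miR-92 was 0.63 ± 0.44 (SD, n = 4) in LT-HSC and -0.10 and 1.05 in the 2 MuSC samples, and it lay between -2 and -0.30 in the samples of the other 10 populations. It was -0.70 ± 0.10 (SD, n = 3) in KSL-B6, -1.23 ± 0.10 (SD, n = 4) in Myoblast and lowest, -1.90 ± 0.10 (SD, n = 3), in NSPC-P0. The permutation p was 1e-05, the smallest that the draws can give, and 5.2e-05 after adjustment over the 21 pairs. The labels call LT-HSC and MuSC quiescent, and these 2 populations had the least miR-19b relative to the miR-92 assay, with no overlap with the others. Against the miR-92N assay LT-HSC did not stand there. The Ct of miR-19b minus that of miR-92N was -4.65 in LT-HSC, the lowest but for KSL-RbTKO at -4.70, with samples from -7 to -2.90, and it was -2.73 in MuSC, the highest. The Ct of miR-20 minus that of miR-92N was likewise lowest in LT-HSC, at -3.93.

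Nearest to them lay the leukaemic fractions and KSL-B6. MLL-LSC was at -0.40 ± 0.10 and MLL-Prog at -0.57 ± 0.21, while NSPC-P0-Exp was at -1.60 ± 0.10 and NSPC-Adult at -1.07 ± 0.15 (SD, n = 3 each). KSL-ETO (-1.33 ± 0.06, SD, n = 3) and KSL-Mixed (-1.40 ± 0.14, SD, n = 2) lay below KSL-B6 without overlap. miR-20 minus miR-92 ran from 1.35 ± 0.38 (SD, n = 4) in LT-HSC to -0.80 ± 0.27 (SD, n = 3) in NSPC-Adult, with 2.35 in the MuSC sample that detected miR-20 (adjusted p = 5.2e-05). miR-19b minus miR-20 ran from -0.27 ± 0.21 in NSPC-Adult (SD, n = 3) and -0.37 ± 0.15 in MLL-Prog to -1.48 ± 0.10 in Myoblast (SD, n = 4) with the same adjusted p, and was -2.45 in the MuSC sample that detected both.

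**Figure D4:**
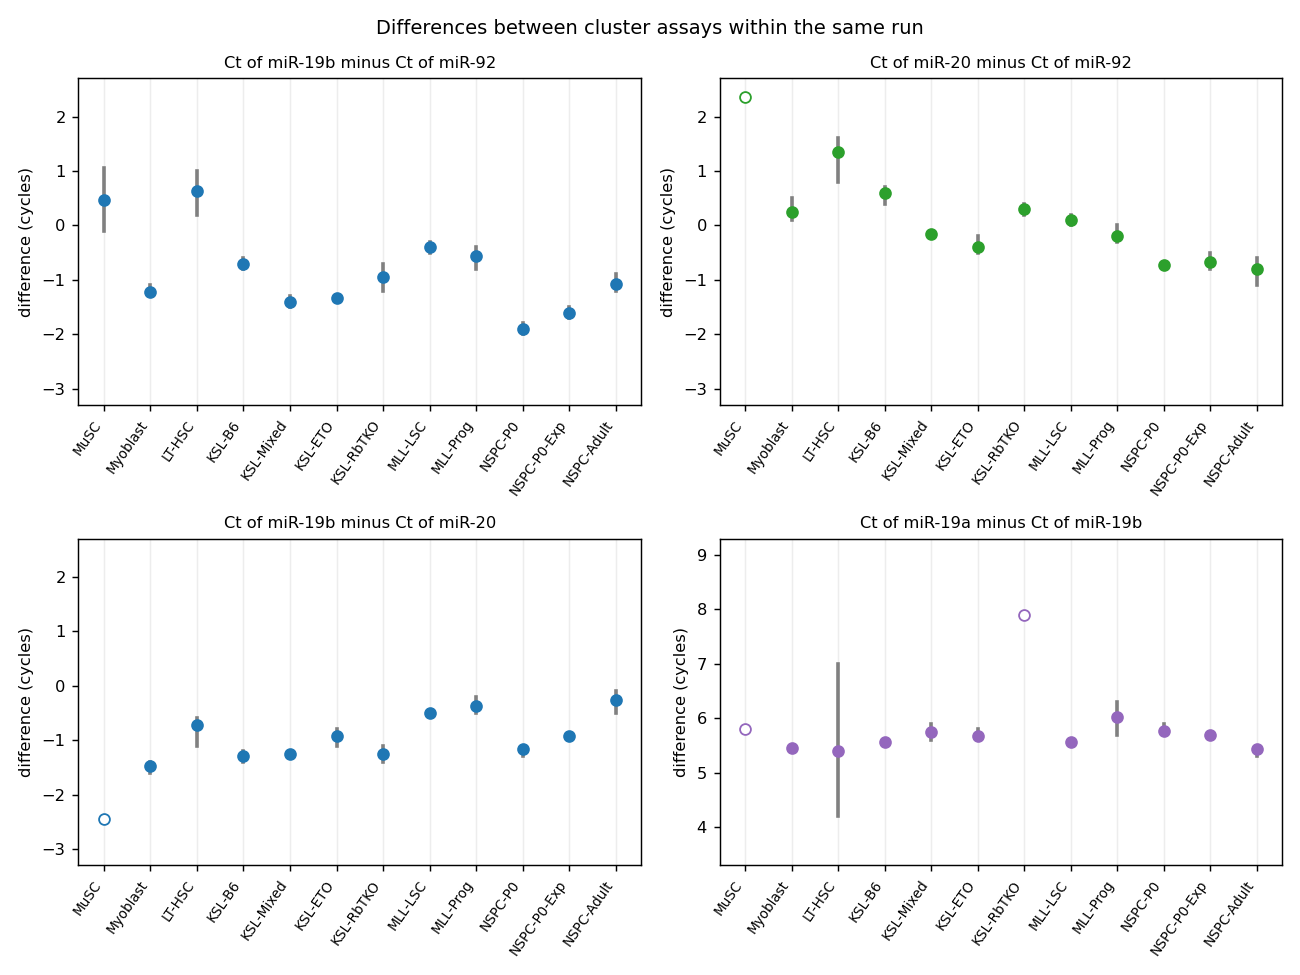
Ct difference in cycles between pairs of cluster assays in the same run by population, with the mean as a point (open where 1 sample detected both) and the range over samples as a line. LT-HSC, at 0.63, and MuSC are the highest for miR-19b minus miR-92 and NSPC-P0 is the lowest, at -1.90, while miR-19a minus miR-19b lies between 5.40 and 6.03 in all populations with more than 1 such sample.

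The miR-92 and miR-92N assays carry the same miRNA name but did not keep 1 offset (adjusted p = 0.0132). The Ct of miR-92 minus that of miR-92N had means between -2.93 and -2.55 in KSL-Mixed, KSL-ETO, NSPC-P0, NSPC-P0-Exp, Myoblast, KSL-B6, NSPC-Adult and MLL-Prog. It was -3.20 in MuSC, -3.47 in MLL-LSC, -3.75 in KSL-RbTKO and -5.28 in LT-HSC, where samples ranged from -7.30 to -3.10. MLL-LSC samples ranged from -4.60 to -2.90. Which of the assays departs in these 4 populations was not tested, so ratios to miR-92 there hold for that assay.

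The related clusters were followed with a list of 9 assays, of which 6 or 7 could be tested in each comparison. It holds miR-106b, miR-93 (2 assays) and miR-25 of the miR-106b-25 cluster, which lies in the replication gene Mcm7, and miR-106a (2 assays), hsa-miR-20b, hsa-miR-18b and hsa-miR-363 of the X-linked cluster. hsa-miR-18b and hsa-miR-363 were detected in 0 of 37 runs. In 8 of the 10 direct comparisons all called assays of the list moved in the direction of the called cluster members. Counts are given beside the shares of all assays tested that were called in the same direction. In NSPC-Adult minus NSPC-P0-Exp 5 of 7 were higher and 1 lower (25.8% and 15.2% of all). In NSPC-P0-Exp minus NSPC-P0 3 of 7 were higher (21.4% of all). In MLL-LSC minus KSL-B6 2 of 7 were higher and 2 lower (34.8% and 31.1% of all).

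In Myoblast minus MuSC 6 of 7 rose (46.5% of all). They were led by miR-93 at 8.19 or more, mmu-miR-93 at 6.51 or more and mmu-miR-106a at 6.26 or more. In KSL-B6 minus LT-HSC 6 of 7 rose (49.6% of all), with mmu-miR-106a at 5.66 ± 0.32. In MLL-LSC minus LT-HSC 5 of 6 rose (39.8% of all), with miR-93 at 6.26 ± 0.89. In KSL-ETO minus KSL-B6 all 7 tested fell (38.4% of all). Among them hsa-miR-20b fell by 4.21 or more, mmu-miR-106a by 1.88 ± 0.12 and miR-106b by 1.74 ± 0.13. In MLL-Prog minus MLL-LSC 4 of 6 fell (29.5% of all), mmu-miR-106a by 4.33 ± 0.26 and mmu-miR-93 by 2.99 ± 0.43. In KSL-RbTKO minus KSL-Mixed 3 of 6 fell (19.1% of all), miR-93 with a value of -3.89, mmu-miR-106a with -3.14 and miR-25 with -2.45. In KSL-Mixed minus KSL-B6 4 of 7 fell (31.3% of all), hsa-miR-20b by 2.71 or more.

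miRNAs that Myc is known to repress, among them let-7, miR-15, miR-26, miR-29, miR-30, miR-34 and miR-150 assays, formed a second list of 32. Its counts are given beside the shares of all assays tested that were called. In Myoblast minus MuSC 10 of 29 tested fell and 4 rose (15% and 46.5% of all), with miR-26a at -3.36 ± 0.16 and miR-34aN at 2.66 or more, around a median of -0.24 against 1.11 over all assays. In KSL-B6 minus LT-HSC 11 of 25 rose and 4 fell (49.6% and 14.9% of all), with a median of 1.26 against 1.14, let-7g at 3.35 or more and miR-29bN at -5.32 ± 0.22. In MLL-LSC minus LT-HSC 13 of 24 rose and 5 fell (39.8% and 13.8% of all), among them miR-150 at -6.41 ± 0.24. In MLL-Prog minus MLL-LSC 8 of 24 fell and 4 rose (29.5% and 27.9% of all), with let-7c at -2.33 ± 0.16 and let-7b at -3.59 ± 0.38.

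In the neural comparisons 5 of 26 rose and 7 fell after culture (21.4% and 25.4% of all, shares near those of the list), with miR-29a at 3.92 or more and miR-30a-5p at -1.16 ± 0.12, and 9 of 27 rose and 0 fell in the adult (25.8% and 15.2% of all), with miR-34a at 2.74 or more. In KSL-ETO minus KSL-B6 7 of 25 rose and 5 fell (32% and 38.4% of all), with miR-26b at 0.82 ± 0.12 and miR-15b at -1.68 ± 0.30. In MLL-LSC minus KSL-B6 8 of 25 rose and 8 fell (34.8% and 31.1% of all), with miR-150 at -4.64 ± 0.20 and miR-30c at 1.42 ± 0.13. In KSL-RbTKO minus KSL-Mixed 2 of 21 rose and 4 fell (11.7% and 19.1% of all), with miR-30c at -1.09 ± 0.07, and in KSL-Mixed minus KSL-B6 4 of 25 rose and 6 fell (15.7% and 31.3% of all), with let-7i at 2.47 ± 0.13. The list thus had calls in both directions in all direct comparisons but the adult neurosphere one.

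Over the 12 population means, the assays whose levels were most like the mean of the cluster members were mmu-miR-93 (Pearson r = 0.842), miR-93 (0.841), miR-106a (0.814), miR-25 (0.765) and miR-15b (0.759), out of 82 ranked with a median r of 0.13. The points share the same runs, centring and floor, and r is a description. At the other end stood miR-381, at -0.844. The sequences of the 4 distinct miRNAs named, in the same notation, show that miR-93 and miR-106a hold the seed of miR-17-5p and miR-20, miR-25 holds that of miR-92, and miR-15b holds none of the cluster's seeds.
miR-93: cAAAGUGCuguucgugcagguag
miR-106a: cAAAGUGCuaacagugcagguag
miR-25: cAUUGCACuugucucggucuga
miR-15b: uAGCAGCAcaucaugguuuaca

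In GRCm38.p6 they lie at chr5:138165574-138165596, chrX:52742541-52742563 and chr5:138165332-138165353, all on the minus strand, and at chr3:69009775-69009796 on the plus strand. miR-106a differs from miR-17-5p at 1 of 23 positions, and what the miR-17-5p and miR-106a assays read of each other was not tested. Among the members themselves, each against the mean of the others, miR-19b had the highest r (0.946), then miR-92N (0.870), miR-20 (0.868), miR-19a (0.858), miR-92 (0.797), miR-18 (0.737) and miR-17-5p (-0.073), which lay at the floor in nearly all samples. miR-93, at Ct 40 in all MuSC runs, was between 29 and 32.8 in LT-HSC and between 23.5 and 24.5 in Myoblast.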

How the data were processed

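The deposited files hold raw threshold cycles (Ct, whole-panel TaqMan values, 1 file per run), a scale with no normalization by the authors that the labels or file headers record; software for calling Ct is not given in the sources used here. The 7 members and the comparison lists were chosen with earlier results of these data known. The fit was on centred Ct, and in each comparison the level is the mean Ct of assays detected (Ct below 35) in every run compared minus the Ct, floored at the lowest level measurable in every run. Assays detected in every run of at least 1 group were tested with limma 3.58.1 in R 4.3.3 (lmFit, eBayes), with Benjamini-Hochberg adjustment over all assays tested and calls at adjusted p under 0.05. Ct differences between members used permutation tests in Python 3.11.15 (numpy 2.4.6). The fits were also run on simulated data. The assays changed there amplified well before the detection limit, so the simulation does not cover changes near the floor.

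Samples were grouped by their labels, with KSL split by strain, and near-identical MuSC runs (SD of Ct difference below 0.25 over assays under Ct 32) were averaged. Named are all 7 members, up to 3 list members per comparison by smallest adjusted p, the 5 assays most like the members among those detected in at least 9 populations, and, chosen after their values were seen, the miR-17-3p assays. Same-numbered MLL-LSC and LT-HSC samples correlated at 0.159 to 0.327 in their deviations from the group means, each best with its own number. That likeness was found from the data alone, and in no other comparison checked did all same-numbered samples show it. All reported fits, that of MLL-LSC minus LT-HSC among them, were unpaired, and the replicate block was run only as an alternative. Alternatives were other detection limits, no centring, quantile normalization, median centring, centring without members and related assays, no floor, a replicate block, all wildtype KSL as control and leaving out each sample. A single value with no assay name was left out. Runs give no count of molecules, so the number of samples and the Ct limit set the precision.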

Additional observations from a re-analysis of the deposited data

Results flagged for a closer look

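In LT-HSC, miR-18 gave Ct 29 in replicate 4 and 39.1 to 40 in the other 3 runs, a level of -1.55 where the others lay at the floor of -5.23. In the same population miR-17-5p reached a level of -3.70 in replicate 2 and lay at the floor in the others. In Myoblast, miR-18 was at Ct 27.9 in replicate 3 and at 28.7 to 28.8 in the other 3. Each was flagged because 1 sample stood far from the rest of its group, which chance does in about 1 in 20 groups where values are not tied. That rate does not hold for the levels of miR-17-5p and miR-18 in LT-HSC, where the other 3 samples are tied at the floor, and on the Ct scale miR-17-5p in replicate 2 (31.6, against 33.5 to 36.7) did not stand apart by the same measure.

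The step from stem cell to progenitor differed between blood and muscle for miR-19a (-3.93), miR-19b (-2.96), miR-92 (-2.59) and miR-20 (-6.64, blood minus muscle), by the interaction test given above.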

How the results depend on the processing

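The number of members called was within 1.5 times the reported one under every setting run in Myoblast minus MuSC, MLL-Prog minus MLL-LSC, MLL-LSC minus KSL-B6, KSL-ETO minus KSL-B6, the comparison of the blood and muscle steps, and the pairs of members (17 at a detection limit of Ct 32, and 16 to 20 with 1 sample left out). Leaving out 1 sample gave 2 to 4 in KSL-B6 minus LT-HSC, 0 to 6 in NSPC-P0-Exp minus NSPC-P0, 4 to 6 in NSPC-Adult minus NSPC-P0-Exp, 3 to 5 in MLL-LSC minus LT-HSC, 0 to 1 in KSL-RbTKO minus KSL-Mixed and 1 to 3 in KSL-Mixed minus KSL-B6. Without centring the counts were 6 in KSL-B6 minus LT-HSC (reported 3), 7 in MLL-LSC minus LT-HSC (4), 5 in KSL-RbTKO minus KSL-Mixed (2) and 7 in KSL-Mixed minus KSL-B6 (4). With members and related assays left out of the centring, KSL-B6 minus LT-HSC had 5. Median centring gave 0 in NSPC-P0-Exp minus NSPC-P0 (5), 2 in MLL-LSC minus LT-HSC, 0 in KSL-RbTKO minus KSL-Mixed and 2 in KSL-Mixed minus KSL-B6. Quantile normalization gave 3 in NSPC-P0-Exp minus NSPC-P0, 2 in NSPC-Adult minus NSPC-P0-Exp (6), 1 in KSL-RbTKO minus KSL-Mixed and 2 in KSL-Mixed minus KSL-B6, and it reversed miR-19a in MLL-LSC minus KSL-B6 (0.628) and miR-19b between the steps (1.58). A limit of Ct 32 gave 2 in MLL-LSC minus LT-HSC and 2 in KSL-Mixed minus KSL-B6, and Ct 38 gave 3 in NSPC-P0-Exp minus NSPC-P0 and 2 in KSL-Mixed minus KSL-B6. All 5 wildtype KSL runs as control gave 4 in KSL-RbTKO. The cause of these changes was not tested. With a replicate block the counts were 0 in NSPC-P0-Exp minus NSPC-P0 and 3 in NSPC-Adult minus NSPC-P0-Exp, where the samples share only a number (correlations of -0.091 to 0.024), and 4 in MLL-LSC minus LT-HSC, as reported but with miR-18 and miR-92N in place of miR-19a and miR-92. The median of all assays moved by up to 2.74 without centring (-2.14 at the other end), by -0.77 to 0.43 with median centring and by -0.27 to 0.63 with quantile normalization. Over all assays, a limit of Ct 32 took the calls from 78 to 51 in Myoblast minus MuSC and also in KSL-B6 minus LT-HSC, from 66 to 37 in MLL-LSC minus LT-HSC (107 without centring) and from 54 to 34 in KSL-Mixed minus KSL-B6 (96 without centring, 30 without KSL-B6 replicate 2). The block took NSPC-P0-Exp minus NSPC-P0 from 59 to 37, and NSPC-Adult minus NSPC-P0-Exp went from 54 to 86 without NSPC-P0-Exp replicate 3. KSL-RbTKO minus KSL-Mixed went from 29 to 61 without centring, 14 with median centring, 48 with Ct 38, 51 with no floor, 55 with all wildtype KSL and 13 without KSL-Mixed replicate 5. The percentage of calls that were higher without centring was 94.6 (reported 75.6) in Myoblast minus MuSC, 88.7 (76.9) in KSL-B6 minus LT-HSC, 67.2 (45.8) in NSPC-P0-Exp minus NSPC-P0, 81.3 (63.0) in NSPC-Adult minus NSPC-P0-Exp, 6.2 (48.6) in MLL-Prog minus MLL-LSC, 86.9 (74.2) in MLL-LSC minus LT-HSC, 28.9 (45.5, and 34.5 with members and related assays left out of the centring) in KSL-ETO minus KSL-B6, and 0 in KSL-RbTKO minus KSL-Mixed (37.9) and KSL-Mixed minus KSL-B6 (33.3). With median centring it was 63.3, 25 and 56.2 in KSL-B6 minus LT-HSC, NSPC-P0-Exp minus NSPC-P0 and MLL-LSC minus LT-HSC, 61.2 in MLL-Prog minus MLL-LSC, 64.2 (52.8) in MLL-LSC minus KSL-B6, 71.4 in KSL-RbTKO minus KSL-Mixed and 55.6 in KSL-Mixed minus KSL-B6. With quantile normalization it was 63.7 in Myoblast minus MuSC, 63.8 in KSL-B6 minus LT-HSC, 62.9 in MLL-LSC minus LT-HSC, 58.6 in KSL-ETO minus KSL-B6 and 50 (30.5) between the steps. For single members and settings other than leaving out a sample, 467 values kept their direction and their side of the threshold, 59 lost a call, 34 gained one, 28 not called moved in value and 2 reversed. miR-17-5p was below Ct 35 in every run of 7 populations yet lay at the common floor there on the scale of all runs, so its order is limited by that floor.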

Other observations

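hsa-miR-20b, whose gene lies in the X-linked cluster beside the second copies of miR-19b and miR-92, was detected in 11 of 37 runs. It ran at Ct 28.9, 28.6, 28.5 and 29.3 in Myoblast, 30.1, 29.9 and 30.3 in KSL-B6, 33.9, 33.9 and 33.5 in NSPC-P0-Exp and 34.6 in NSPC-Adult replicate 2. It was detected in none of the leukaemic runs, where miR-19b ran between 20.7 and 23.2 and miR-92 between 21.1 and 23.9. Another product of the X-linked cluster was detected in all leukaemic runs, with mmu-miR-106a at Ct 27.5 to 28.1 in MLL-LSC and 32.5 to 33.3 in MLL-Prog. These assays were chosen after their values were seen.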
